A study of Mus musculus with 3 samples.

Results

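The genes described here are 10 members of the YAP and SRF target programme of the cell cytoskeleton: Ccn1, Ccn2, Ankrd1, Thbs1, Tagln, Acta2, Cnn1, Tpm1, Vcl and Cav1. They were taken as a named list from the 27670 gene names on a mouse oligonucleotide array, and all 10 had a probe. Together they have 21 probes on 30 spots, and Ccn1 and Ccn2 were found under their older names Cyr61 and Ctgf. RNA came from mouse embryonic stem (ES) cells of the V6.5 line, whose strain background is a mix of 129 and C57BL6. The knockout group, of genotype Tet1 KO, holds 2 samples, KO 4 and KO 22, and the wild type group, of genotype Tet1 WT, holds 1. All cells shared a culture on irradiated feeders with the cytokine LIF, and they were preplated before RNA was taken, a step that removes feeder fibroblasts by their quick attachment. How the knockout was made, and whether KO 4 and KO 22 are separate clones or cultures, are not given in the sources used here. The p-values therefore rest only on the spread between these knockout samples, which may be technical. Limma pools that spread over all genes, so for a single gene it is largely a shared value.

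YAP and its partner TAZ (gene Wwtr1) are coactivators that enter the nucleus when the Hippo kinases are inactive and bind DNA through the TEAD factors. SRF binds CArG boxes and is switched on by the cofactors MRTF-A and MRTF-B when actin monomers are used up in filaments. Both routes respond to cell spreading and tension, and they share targets that encode secreted matrix proteins and parts of the actin machinery. In ES cells YAP, TAZ and the TEAD factors are present, while strong expression of smooth muscle genes is a mark of differentiated mesenchymal cells.

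Promoter windows from RefSeq (build GRCm38.p6, 250 bases before to 50 bases after the annotated gene start) were held by the reference table for 7 members in 8 windows. The table was searched for the CArG box and for the TEAD motif CATTCC, both on either strand. The CArG box was taken as CCWWWWWWGG, where W is A or T, and only exact matches were counted. Near matches, such as ccctatatgg in the Acta2 stretch, stay in lower case. Of the 7 members, 5 held a TEAD motif, against 14.7% of all 32851 windows, and 1 (Vcl) held a CArG box, against 1.63% of them. The members were picked as targets of these factors, so these shares are a description. The 250 upstream bases of the 5 members with a match are shown because they carry the sequences named after the factors. Each is written 5′ to 3′ on the strand of the gene, with motif matches in capitals.
Ankrd1: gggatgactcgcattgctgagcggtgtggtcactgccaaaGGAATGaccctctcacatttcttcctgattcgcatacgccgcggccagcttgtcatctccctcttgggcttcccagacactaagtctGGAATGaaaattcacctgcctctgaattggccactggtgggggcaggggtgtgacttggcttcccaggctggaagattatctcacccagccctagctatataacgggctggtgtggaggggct
Ccn1: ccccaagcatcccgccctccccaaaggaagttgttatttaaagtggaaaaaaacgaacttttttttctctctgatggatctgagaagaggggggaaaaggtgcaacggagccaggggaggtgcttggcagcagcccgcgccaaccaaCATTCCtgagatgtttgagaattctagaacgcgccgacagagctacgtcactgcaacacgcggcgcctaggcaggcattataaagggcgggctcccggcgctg
Tpm1: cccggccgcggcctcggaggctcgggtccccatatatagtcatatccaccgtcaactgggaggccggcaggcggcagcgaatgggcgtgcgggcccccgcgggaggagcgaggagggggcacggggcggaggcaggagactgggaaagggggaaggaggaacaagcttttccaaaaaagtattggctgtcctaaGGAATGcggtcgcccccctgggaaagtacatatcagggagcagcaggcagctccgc
Acta2: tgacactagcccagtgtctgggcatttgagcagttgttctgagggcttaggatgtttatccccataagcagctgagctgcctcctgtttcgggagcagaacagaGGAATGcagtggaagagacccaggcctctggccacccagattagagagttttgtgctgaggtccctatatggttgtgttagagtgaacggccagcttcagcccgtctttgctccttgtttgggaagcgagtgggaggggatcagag
Vcl: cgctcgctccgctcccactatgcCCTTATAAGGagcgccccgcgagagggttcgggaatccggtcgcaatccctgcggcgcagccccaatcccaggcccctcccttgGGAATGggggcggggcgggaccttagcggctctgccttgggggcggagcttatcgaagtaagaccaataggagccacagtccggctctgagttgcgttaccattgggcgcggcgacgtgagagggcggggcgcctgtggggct
The Ankrd1 stretch lies at chr19:36119845-36120094 on the minus strand and holds 2 TEAD motifs, which begin 210 and 123 bases before the start. Among all windows 1.36% held 2 or more. The Ccn1 stretch (chr3:145649986-145650235, minus strand) has its match 103 bases upstream, and that of Tpm1 (chr9:67049214-67049463, minus strand) 56 bases upstream. In Acta2 (chr19:34255374-34255623, minus strand) the match begins 146 bases upstream. The Vcl stretch (chr14:20929148-20929397, plus strand) has a TEAD motif 143 bases and the CArG box 227 bases upstream, and these do not overlap. The windows of Cnn1 and Cav1 held neither set of letters. The reference table held no window for Ccn2, Thbs1 and Tagln, so these were not searched.

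**Figure D1:**
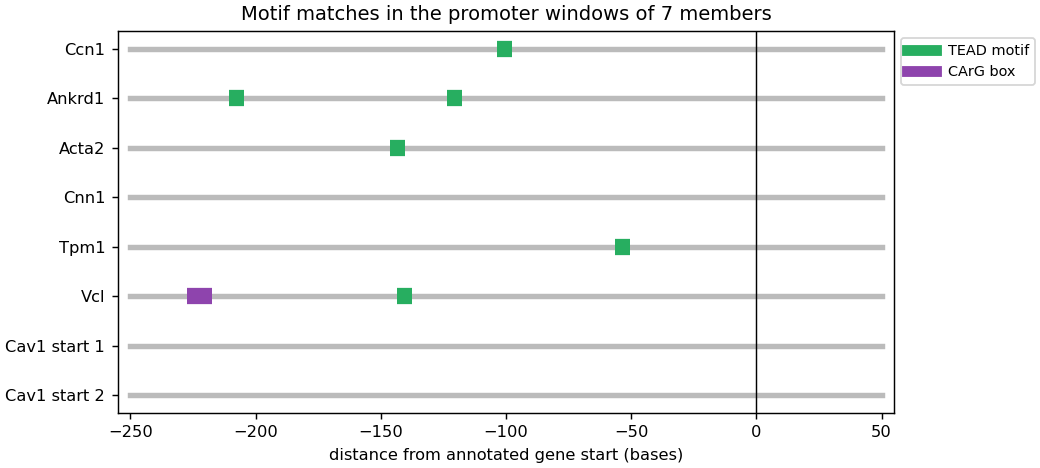
Motif matches in the promoter windows of 7 members, by distance in bases from the annotated gene start (0). Grey bars are the windows, 2 of them for Cav1, green blocks TEAD motifs and purple blocks the CArG box; Ankrd1 holds 2 TEAD motifs and Vcl holds both kinds.

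RNA levels of the programme were compared between knockout and wild type. The targeted gene was read first: the Tet1 probe read 213.8 on KO 4, 195.4 on KO 22 and 720.9 on wild type (log2 difference -1.94 ± 0.09, limma adjusted p = 0.0529). The lower reading on both knockout arrays has the direction of the labels, but alone it does not prove them. Where the probe lies relative to the altered part of Tet1 was not determined here. All 9 tested ES cell markers, Pou5f1, Nanog and Sox2 among them, were well above background on every array, with differences of -0.47 for Esrrb and Pou5f1, 0.40 for Klf4 and 0.25 for Nanog. Limma called 0 of the 9, with a raw p below 0.05 for 1 higher and 2 lower, while an intensity trend in the variance called Klf4 higher and Pou5f1 and Esrrb lower. Over all genes tested, 13.2% were higher and 15% lower by raw p, and the trend called 8.31% higher and 10.7% lower. The arrays lie on 1 slide and were scanned on 1 day, between 62.2% and 62.8% of non-control spots were well above background, and 0 spots were saturated. With 3 arrays in all, the number of arrays limits the precision.

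Most of the members were higher in the knockout samples. A member's level is the log2 processed intensity of its brightest probe minus the 75th percentile of its array, and a difference is knockout minus wild type with the standard error from limma (n = 2 against 1). Of the 10 members, 8 were above wild type on both knockout arrays, against 38% of the 17709 genes tested, and 1 (Cnn1) was below it on both, against 45.5%. At least 2-fold higher on both arrays were 3 members, Ankrd1, Tagln and Thbs1, against 1.45% of genes. None was at least 2-fold lower on both, against 1.56%. The members were chosen with earlier results of these data known, so these shares describe the list and do not test it. The median difference of the members was 0.78, being 0.81 on KO 4 and 0.60 on KO 22, while the median of all genes was -0.03. These differences all share the lone wild type array, and in bulk RNA fewer cells of a type and less RNA per cell cannot be told apart.

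No member passed the test on single genes. Limma called 0 of 10 at an adjusted p below 0.05, where over all genes it called 0.0339% higher and 0.322% lower. By raw p below 0.05, before adjustment, 6 members were higher and 0 lower, against 13.2% and 15% of all genes. The test has 1 residual degree of freedom, and the result depends on how the spread is modelled. With an intensity trend in the variance, limma called 6 members higher (Ccn1, Ccn2, Ankrd1, Thbs1, Tagln and Tpm1) and 0 lower, against 8.31% and 10.7% of genes. On the deposited series matrix values it called Ccn1, Ankrd1, Thbs1 and Tpm1, as higher and 0 as lower, against 2.69% and 2.79% of genes. With only genes above background on all 3 arrays it called Ccn1, Ankrd1 and Tpm1 as higher and 0 as lower, against 3.05% and 2.51%. With normexp background correction, leaving out spots below their own background, it called Ccn1, Ankrd1, Thbs1, Tagln, Tpm1 and Cav1 as higher and 0 as lower, against 7.73% and 10.6%.

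**Figure D2:**
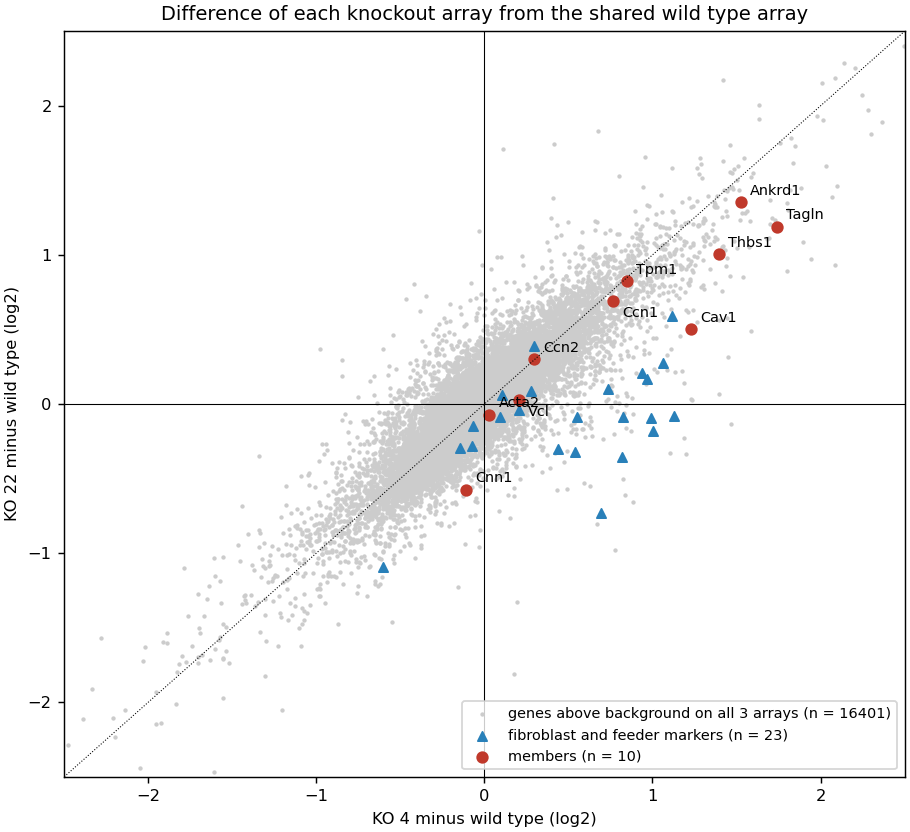
Difference from wild type on KO 4 (horizontal axis, log2) and KO 22 (vertical axis, log2) for genes above background on all 3 arrays (grey), the 10 members (red) and 23 fibroblast and feeder markers (blue); the dotted line marks equal differences. Ankrd1, Tagln and Thbs1 lie above 1 on both axes, while most blue points lie below the dotted line.

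The secreted members come first. Ccn1 encodes a matrix-associated integrin ligand that is an immediate YAP target. Its probe, at chr3:145544387-145544446 on build mm7, gave an intensity of 9029 on KO 4, 7691 on KO 22 and 4610 on wild type. Both knockout samples were high and close to each other, with a scaled difference between them of 0.08. Ccn1 differed by 0.73 ± 0.10, a 1.66-fold higher level (limma adjusted p = 0.101).

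Ccn2 encodes connective tissue growth factor, a close relative of Ccn1 that also responds to TGF-beta. Its probe (chr10:24349402-24349461, mm7) read 20107, 18147 and 14241 on KO 4, KO 22 and wild type. Bright on every array, it had the smallest gap between the knockout samples of all members, -0.01. Its difference of 0.30 ± 0.09 amounted to 1.23-fold (limma adjusted p = 0.166).

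Thbs1 encodes thrombospondin 1, a matrix glycoprotein that activates latent TGF-beta. The brightest of its 3 probes (chr2:117866887-117866946, mm7) gave 497.5 on KO 4, 340.6 on KO 22 and 164.4 on wild type. KO 4 was the highest sample and wild type the lowest. The difference was 1.20 ± 0.21, or 2.30-fold (limma adjusted p = 0.112), being 2.63-fold on KO 4 and 2.00-fold on KO 22. The other probes, at chr2:117863442-117863501 and chr2:117861824-117862004 and dimmer, kept this order of samples with smaller differences, 0.67 and 0.68. On KO 22 alone they stood only 0.42 and 0.40 above wild type, and the mean over all 3 probes was 0.85. With normexp background correction of all spots the brightest probe differed by 0.21 (limma adjusted p = 0.123), and without the 8 wild type spots below their own background by 0.95.

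Ankrd1 encodes an ankyrin-repeat protein of muscle sarcomeres and nuclei and is widely used as a readout of YAP. A single probe (chr19:35813004-35813063, mm7) reports it. The intensities were 298.2 on KO 4, 237.5 on KO 22 and 90.0 on wild type. The level is modest on all arrays, with both knockout samples clearly apart from wild type and 0.17 apart from each other. Its difference was 1.44 ± 0.12, 2.71-fold (limma adjusted p = 0.0935), the lowest adjusted p of the 10 members. On normexp values without spots below their own background the difference was 1.02, and with those 8 wild type spots kept in it turned to -0.10.

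Among the smooth muscle members the picture was mixed. Tagln encodes transgelin, an actin-binding calponin family protein whose gene is a standard SRF target. The brighter of its 2 probes (chr9:45888137-45888196, mm7) read 19585 on KO 4, 12006 on KO 22 and 5090 on wild type. The other probe (chr9:45888956-45889015) read 2736, 1680 and 657.5 in that order. Both ordered the samples alike, with a gap of 0.55 between the knockout samples on each. The brighter probe differed by 1.47 ± 0.29, 2.76-fold (limma adjusted p = 0.12), and the dimmer by 1.58, 2.99-fold.

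Acta2 encodes smooth muscle alpha-actin, and its probes disagree. The brightest, which spans 3255 bases of the genome (chr19:33949738-33952992, mm7) and so crosses an intron, gave 10406, 8718 and 8855 on KO 4, KO 22 and wild type. By this probe the gene did not separate the groups, at -0.02 ± 0.10 (limma adjusted p = 0.913). Another probe, at chr19:33942803-33942862, was printed on 10 spots of each array. Its spots ranged from 2588 to 2780 on KO 4 (median 2717), from 1479 to 1758 on KO 22 (median 1601) and from 828 to 944.1 on wild type (median 919.1). The spot ranges of the 3 arrays, before scaling, did not overlap, and the SD between spots was 0.04, 0.08 and 0.06 on the log2 scale. These spots are technical repeats within an array, so their spread does not measure that between samples. This probe stood 1.06 above wild type, 2.09-fold, with 1.36 on KO 4 and 0.77 on KO 22. Its adjusted p was 0.155 in a limma fit over all 26526 tested probes.

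The probe at chr19:33942440-33942499, dimmer still (62.3, 31.1 and 25.9), was 1.06 above wild type on KO 4 and 0.21 on KO 22. Of the remaining Acta2 probes, 1 was well above background on KO 4 alone, at 13.8, and 1 on no array. Actin genes have near-identical coding sequences, so a probe in shared sequence can read several of them, and which probes do so was not tested. With the mean of the 4 tested probes, the one above background on KO 4 alone included, the Acta2 difference was 0.43.

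Cnn1 encodes calponin 1, an actin- and myosin-binding protein of contractile smooth muscle. Its probe (chr9:21988172-21988231, mm7) gave 4588 on KO 4, 2984 on KO 22 and 4294 on wild type. Here KO 22 was the low sample and KO 4 lay near wild type. Cnn1 was the only member below wild type on both knockout arrays, at -0.34 ± 0.25 (limma adjusted p = 0.434), with -0.11 on KO 4 and -0.57 on KO 22. With normexp correction of all spots it turned to 0.12.

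Tpm1 and Vcl belong to the general actin machinery. Tpm1 encodes a tropomyosin that winds along actin filaments and is made in many splice forms. Its brightest probe (chr9:67064287-67065357, mm7) read 22499 on KO 4, 19879 on KO 22 and 10865 on wild type. Both knockout samples were high and nearly equal, at a gap of 0.02. The difference was 0.84 ± 0.09, 1.78-fold (limma adjusted p = 0.0977). The other probes gave a difference of 1.11 at chr9:67059621-67061176, where both knockout arrays were at least 2-fold up, and of 0.67 at chr9:67054531-67054590. All 3 probes thus had the same direction on both arrays, with sizes from 1.59-fold to 2.16-fold.

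Vcl encodes vinculin, which links integrin and cadherin adhesions to actin. The brighter of its 2 probes (chr14:18691556-18691615, mm7) gave 2669, 2121 and 2014 on KO 4, KO 22 and wild type, so KO 22 lay next to wild type. Its difference was 0.11 ± 0.12, 1.08-fold (limma adjusted p = 0.585). The dimmer probe stood at 0.18, with 0.16 on KO 4 and 0.19 on KO 22. Among the member windows, that of Vcl alone held an exact CArG match, and Vcl was among the members with the smallest differences. Any link between them was not tested.

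Cav1 encodes caveolin 1, the coat protein of caveolae in the plasma membrane. Its brighter probe (chr6:17281625-17281684, mm7) read 666.5 on KO 4, 361.6 on KO 22 and 247.0 on wild type. KO 4 stood apart, 0.73 above KO 22, which was the widest gap between the knockout samples among the members. The difference was 0.87 ± 0.37, 1.82-fold (limma adjusted p = 0.25), with 1.23 on KO 4 but 0.50 on KO 22. The dimmer probe, at chr6:17279653-17279712, gave 18.1 and 15.6 on the knockout arrays and was not well above background on wild type. Set against the lowest level well above background on the wild type array, it was at least 1.57-fold higher in the knockout samples. The probe fit (limma adjusted p = 0.0538) used the wild type reading as it stood and does not test this bound. On normexp values without spots below their own background this probe differed by only 0.14. With normexp on all spots the difference of the brighter probe was 0.29.

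**Figure D3:**
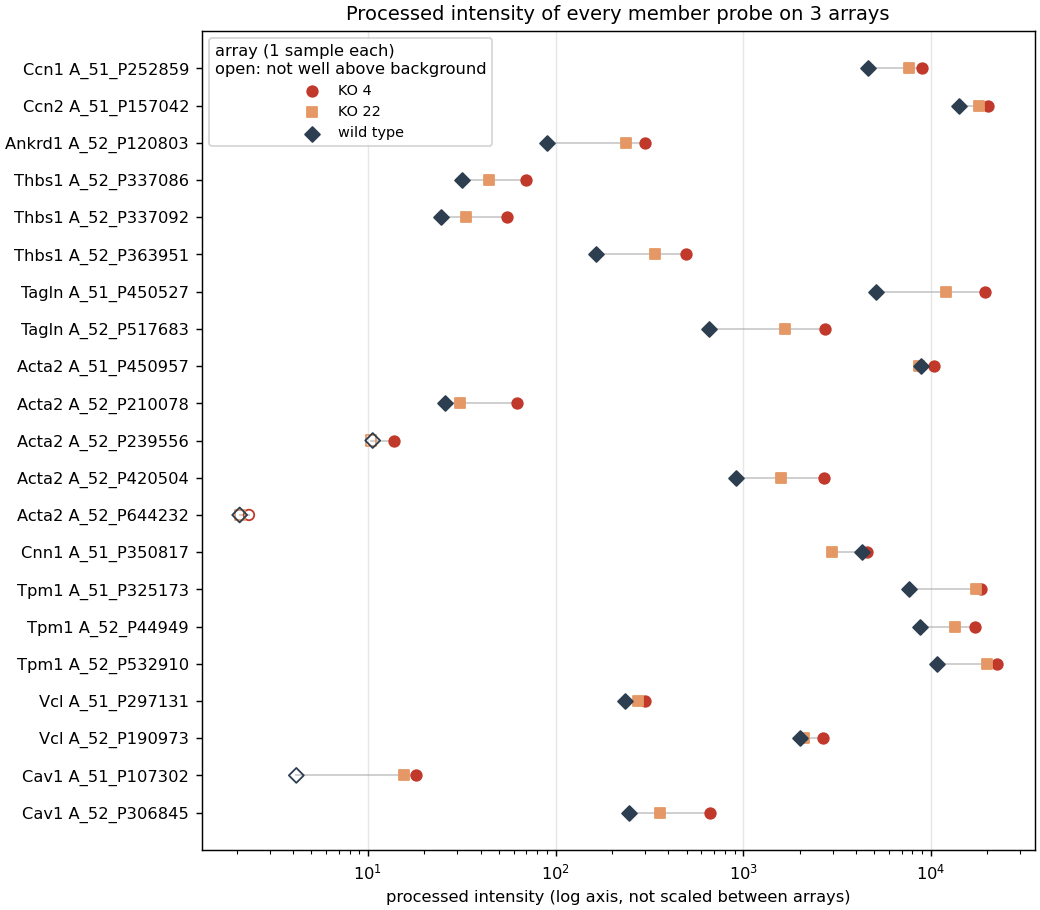
Processed intensity (log axis, before scaling between arrays) of all 21 member probes on KO 4, KO 22 and wild type, 1 array each; open symbols are not well above background. Wild type is the lowest sample for Ankrd1, Tagln, Thbs1, Tpm1 and Ccn1, while the brightest Acta2 probe and Cnn1 show no such order.

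Of the 18 member probes well above background on all 3 arrays, 16 were above wild type on both knockout arrays, 1 was below on both and 5 were at least 2-fold above on both. Several of these probes belong to the same gene, so they are not separate observations. Over all genes tested, by their brightest probe, the corresponding shares were 38%, 45.5% and 1.45%. Shares over all probes were not computed. Within the knockout group KO 4 was above KO 22 for 9 of 10 members, against 47% of all genes. Ccn1, Ccn2, Ankrd1 and Tpm1 had gaps between KO 4 and KO 22 of at most 0.17, while Thbs1, Tagln, Cnn1 and Cav1 had gaps from 0.39 to 0.73. The calculation that leaves out KO 4 gave a member median of 0.60, and that without KO 22 gave 0.81.

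Fibroblast and feeder markers moved with the gap between the knockout samples. Of 24 such genes 23 were tested, and these 23 were well above background on every array. Fap, a fibroblast surface protease, was not, with both of its probes at background on all 3 arrays. Of the 23, 8 were above wild type on both knockout arrays and 4 below, with a median of 0.23. In KO 4 22 of them were above KO 22, with a median gap of 0.63, against 0.18 for the members. The summed level of the list, in units of the 75th percentile of each array, was 40.4 to 48.0 in the knockout samples (48.0 on KO 4) and 42.1 on wild type. On KO 4 the median difference was 0.55 for the fibroblast markers and 0.81 for the members, and on KO 22 it was -0.08 and 0.60. By their brightest probes, Ankrd1, Tagln and Thbs1 were at least 2-fold above wild type on that array. The dimmer Thbs1 probes stood at 0.42 and 0.40 there. The genes of the list that differed most were Col5a1, a fibrillar collagen (1.12 on KO 4 and 0.59 on KO 22), Pdgfra, a mesenchymal receptor (-0.60 and -1.09), Col1a1, of type I collagen (1.06 and 0.28), and Lox, a collagen crosslinker (0.94 and 0.21). Pdgfra was dim, with 15.8 on KO 4 and 20.9 on wild type. Its KO 22 reading lay close to 9.86, the lowest intensity well above background on that array. Its difference is therefore a weak reading. Limma called 0 of the list, with a raw p below 0.05 for 1 higher and 1 lower (Pdgfra), and the intensity trend called 1 higher. The part of feeder RNA in the member levels was not tested on any array.

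The relatives of the members were divided. Of 21 tested paralogs 10 were above wild type on both knockout arrays and 5 below, with a median of 0.07, and limma called 0 (by raw p below 0.05, 2 were higher and 0 lower). Acta1, which encodes skeletal muscle alpha-actin and is an SRF target, differed most: 1772 on KO 4, 1177 on KO 22 and 377.1 on wild type, a difference of 1.81 ± 0.23 (limma adjusted p = 0.101, or 0.00419 with an intensity trend). The other tested actins among the paralogs did not follow it, with -0.08 for Actb, 0.05 for Actg2 and -0.04 for Actc1. Actg1 had no probe. The probes of the member Acta2 disagree, as given above. Whether the Acta1 probe reads other actins was not tested.

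Beside Ccn1 and Ccn2, the related Ccn4 and Ccn5 were 0.83 and 0.84 above wild type on KO 4 but -0.06 and 0.08 on KO 22. Thbs2 stood at 0.20, Thbs3 at -0.02, Thbs4 at -0.27 and the related Comp at 0.32. Tagln2, the transgelin of non-muscle cells, differed by 0.10 and Tagln3 by -0.49, each against 1.47 for Tagln. The calponins Cnn2 and Cnn3 had -0.14 and 0.21. Among the tropomyosins Tpm2 and Tpm4 had 0.27 and 0.19 and Tpm3 -0.20, against 0.84 for Tpm1. Cav2, the partner of Cav1 in caveolae, was dim and stood at -0.02, Ankrd23 and Ankrd2 at 0.07 and -0.09, and Ctnna1, the vinculin relative alpha-catenin, at 0.19. None of these passed.

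The genes of the Hippo route came next. Yap1 read 1151, 1028 and 901.5 on KO 4, KO 22 and wild type, a difference of 0.15 ± 0.09 (limma adjusted p = 0.364), and Wwtr1 differed by 0.17 ± 0.09 (limma adjusted p = 0.308). Of the DNA-binding partners, Tead4 had the largest difference, 0.44 ± 0.10 (limma adjusted p = 0.131), with 0.30 for Tead3, 0.23 for Tead1 and 0.01 for Tead2. Over the Hippo list 13 of 20 tested genes were above wild type on both knockout arrays and 3 below, with a median of 0.20. Limma called 0 of them. By raw p below 0.05 5 were higher and 1 lower, and an intensity trend called 5 higher. The phosphatase gene Ptpn14 stood at 0.94 ± 0.09 and the kinase gene Lats2 at 0.80 ± 0.18, followed by the scaffold gene Wwc1 at 0.46 ± 0.09. Ptpn14 and Lats2 encode inhibitors of YAP and are also known as its targets.

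On the SRF side, Srf itself was lower on both arrays, at -0.30 ± 0.10 (limma adjusted p = 0.187, or 0.0472 with an intensity trend). The cofactor gene Mrtfa, whose product is MRTF-A, stood at -0.14 ± 0.10, and Mrtfb at 0.53 ± 0.11 (limma adjusted p = 0.128). Of 18 tested SRF and MRTF pathway components 9 were above wild type on both arrays and 8 below, with a median of 0.05. Limma called 0. The raw p was below 0.05 for 5 higher and 1 lower, while the intensity trend called 5 higher and 2 lower. The cofilin kinase gene Limk2 stood at 0.44 ± 0.09.

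Other targets of both factors were also read. Of 22 other YAP targets 14 were above wild type on both arrays and 5 below (median 0.23), and limma called 0. Raw p-values below 0.05 were found for 6 higher and 1 lower, and the intensity trend called 5 higher. For this and every other list, the shares over all genes were 13.2% higher and 15% lower by raw p. With the trend they were 8.31% and 10.7%. The matrix gene Ccdc80 stood at 1.20 ± 0.35, the coagulation receptor gene F3 at 0.93 ± 0.16 and the stress gene Gadd45a at 0.82 ± 0.09. The ligand gene Tgfb2 was dimmer and stood at 0.74 ± 0.14. Gadd45a was the steadiest of these, at 0.82 on KO 4 and 0.81 on KO 22. Among 24 other SRF cytoskeletal targets 14 were above on both arrays and 5 below (median 0.17), with 0 called by limma. Raw p-values below 0.05 belonged to 5 higher and 0 lower, and the intensity trend called 5 higher.

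Fhl1, which encodes a LIM-domain protein of muscle and stretch-responsive cells, stood out with 11563 on KO 4, 10358 on KO 22 and 3664 on wild type. The difference was 1.45 ± 0.09 (limma adjusted p = 0.0715, or 0.000888 with an intensity trend). Cald1, the actin-binding caldesmon, followed at 1.23 ± 0.22 (limma adjusted p = 0.112), the filament-severing Gsn at 0.72 ± 0.18 (limma adjusted p = 0.142) and the adhesion protein gene Lpp at 0.48 ± 0.21. The abundant filamin gene Flna and the myosin regulatory chain gene Myl9 stood at -0.29 and -0.20.

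**Figure D4:**
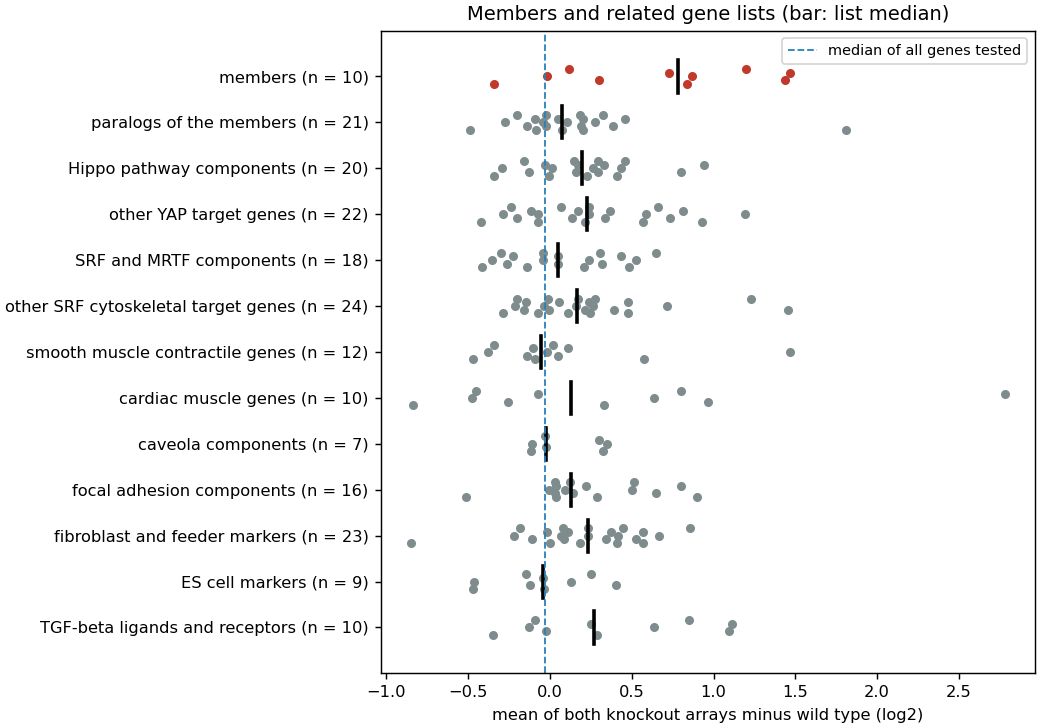
Mean difference of both knockout arrays from wild type (log2) for each tested gene of the 10 members (red) and of 12 related lists (grey); black bars are list medians and the dashed line is the median of all genes, -0.03. The member median of 0.78 lies to the right of every other list's bar, the next being 0.27.

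Other parts of the contractile and adhesion machinery were set beside the members. Of 12 smooth muscle genes, which include Tagln, Acta2 and Cnn1, 4 were above wild type on both arrays and 4 below, with a median of -0.05. Lmod1, a leiomodin that seeds actin filaments, stood at 0.58 ± 0.10, Smtn, which encodes smoothelin, at -0.47 ± 0.09 and Synm, which encodes the filament protein synemin, at -0.38 ± 0.10. The smooth muscle myosin gene Myh11 was dim, with 25.3, 19.4 and 21.8. Of 7 tested caveola genes 3 were above on both arrays and 2 below, and Cavin1, which encodes the main cavin coat protein, stood at 0.35 ± 0.18, with 0.50 on KO 4 and 0.19 on KO 22. Ehd2 and Cavin2 stood at 0.33 and 0.30, also mostly through KO 4, and Cavin4 at -0.12.

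Among 16 focal adhesion genes 12 were above wild type on both arrays and 1, Tns3, below, with a median of 0.13. Parva, the adaptor parvin alpha, stood at 0.90 ± 0.09, Sorbs3, the vinculin-binding protein vinexin, at 0.80 ± 0.09, and the integrin genes Itgb3 and Itgb5 at 0.65 and 0.52. Limma called 0 in each of these 3 lists. By raw p below 0.05 it had 2 smooth muscle genes higher and 2 lower, 0 caveola genes, and 6 focal adhesion genes higher and 1 (Tns3, at -0.51) lower. The intensity trend called 2 smooth muscle genes higher and 1 lower, 0 caveola genes, and 5 focal adhesion genes higher and 1 lower.

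Outside the lists, the genes whose differences lay nearest to the member medians on both arrays were Lrrk2, Ddah1, Nkain4, Zar1 and Unc5b, at a distance of 0.01 to 0.03 on the log2 scale. This likeness rests on 3 arrays and on the shared wild type.

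**Figure D5:**
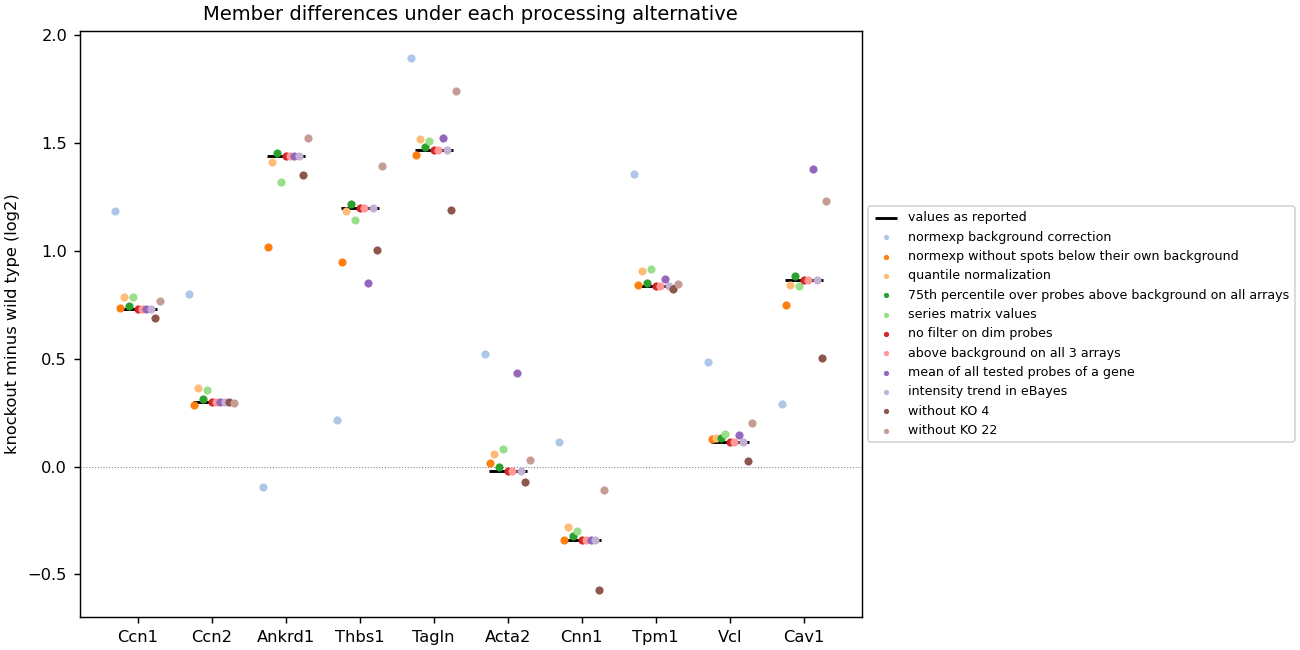
Difference of each member (log2, knockout minus wild type) as reported (black bars) and under each of 11 processing alternatives (coloured points, spread sideways for clarity). Ccn1, Tagln and Tpm1 stay at or above 0.69 throughout, while Ankrd1, Thbs1 and Cav1 drop with normexp on all spots and Acta2 lies on both sides of 0.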

How the data were processed

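The authors' deposited scanner files hold spot intensity values from Agilent Feature Extraction 10.1.1.1, per the file headers: background-subtracted, detrended within the array, with surrogates for dim spots and no scaling between arrays. The deposited series matrix holds log2 values by the authors. All 3 columns have the median 5.52, and Pearson's r with the log2 mean intensity of the same array was 0.991 to 0.993. Whether their background was corrected is unknown. Limma, with no version, is among the tools in the submitters' processing notes.

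Processed intensities of 43379 non-control spots were put on the log2 scale and the 75th percentile of each array (623.7 to 717.7) was subtracted. Outlier-flagged spots were dropped and repeats of a probe averaged. Of 41174 probes 79.5% were matched to a gene (GRCm38.p6) by accession, symbol or synonym. Probe positions are those of the files, on build mm7, and exon or UTR positions on that build were not used here. Probes well above background on 1 or more arrays entered the test, each gene by its brightest (17709 genes). The comparison used lmFit and eBayes of limma 3.58.1 (R 4.3.3) with Benjamini-Hochberg adjustment over all genes. Total degrees of freedom after moderation were 3.03 with a prior SD of 0.09, so an error of 0.09 is a shared minimum, and the spread of wild type is taken to equal that of the knockout arrays. The steps were run on simulated arrays drawn with equal spread in both groups, which cannot check this equality.

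The members and lists were chosen with earlier results of these data known. Named are all members, Tet1, the YAP, TEAD and SRF factors, every tested paralog, up to 4 genes per list by size of difference, and the 5 genes nearest to the member medians. A few genes named beside these (Flna, Myl9, Myh11, Tns3 and Ryr2) were chosen after their values were seen. Some genes that the rule picks are not reported here.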

Additional observations from a re-analysis of the deposited data

How the results depend on the processing

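The main count of calls over all genes was 6 higher and 57 lower. It was 5214 and 8632 after normexp on all spots, 1369 and 1880 after normexp without spots below their own background, 476 and 494 with the series matrix values, 0 and 0 without a filter, 500 and 411 with genes above background on all 3 arrays and 1472 and 1900 with an intensity trend. Members called higher were then 6, 6, 4, 0, 3 and 6, against 0 in the main fit, with quantile normalization, with the percentile over detected probes, with averaged probes and in a fit on every tested probe, the last chosen after seeing the data. The member median was 0.50 with normexp on all spots, which moved the median of all genes to -0.20, and ran from 0.60 to 0.81 when a knockout sample was left out. With normexp without spots below their own background only 1 member, Tagln, was at least 2-fold higher on both arrays. Acta2 turned from -0.02 to 0.52 with normexp on all spots, 0.019 without those spots, 0.059 with quantile normalization, 0.079 in the series matrix values and 0.43 with averaged probes, and ran from -0.071 without KO 4 to 0.030 without KO 22. Ankrd1 turned to -0.10 and Cnn1 to 0.12 with normexp on all spots, and the cause of these turns was not tested. Under the 9 alternatives with a test, 59 of 90 member differences kept direction and side of the threshold, 24 passed in the same direction and 7 turned, 1 of which (Acta2) passed. Without KO 4 or KO 22 there is no test, and 19 of 20 kept their direction. No paired analysis was possible because the groups share no replicate number. Signal over background limits the dimmer Cav1 probe, whose wild type reading of 4.15 lies under the lowest intensity well above background on that array, 9.75, and leaves a bound in place of a fold.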

Other observations

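Genes of the TGF-beta pathway, which shares Ccn2, Thbs1 and Tagln as targets, were read as a further list. Of 10 tested genes 6 were above wild type on both knockout arrays and 3 below, with a median of 0.27. Limma called 0. The raw p was below 0.05 for 4 higher and 1 lower, and an intensity trend called 4 higher and 1 lower. Smad7, the inhibitory Smad that the pathway induces, read 318.0 on KO 4, 314.8 on KO 22 and 134.0 on wild type, a difference of 1.11 ± 0.11 (limma adjusted p = 0.0971, or 0.00565 with an intensity trend). The ligand gene Tgfb3 stood at 1.09 ± 0.29, with 1.37 on KO 4 and 0.81 on KO 22, and the receptor gene Tgfbr2 at 0.85 ± 0.20. Ltbp1, which binds the latent ligand in the matrix, stood at 0.64 ± 0.10.

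Of 10 cardiac muscle genes 5 were above wild type on both arrays and 4 below, and limma called 0. Raw p-values below 0.05 came to 4 higher and 3 lower, and the trend called 4 higher and 2 lower. The homeobox gene Nkx2-5 stood at 0.80 ± 0.17, troponin T gene Tnnt2 at 0.63 ± 0.11 and ventricular myosin light chain gene Myl2 at 0.97 ± 0.13, while the myosin heavy chain gene Myh6 stood at -0.84 ± 0.12. The calcium release channel gene Ryr2 was not well above background on wild type, and the bound was at least 1.78-fold higher in the knockout samples. Its limma adjusted p of 0.0971 used the wild type reading as it stood and does not test this bound.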
